A study of Mus musculus with 9 samples.

Results

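Chemokines are small secreted or membrane-anchored proteins that direct leukocytes through G protein-coupled receptors. In the small intestine, epithelial cells make several of them, among them Ccl25, which draws Ccr9-bearing lymphocytes to the small bowel, and Ccl28, which draws Ccr10-bearing antibody-secreting cells to mucosal surfaces. Others mark lymphoid follicles (Cxcl13, Ccl21a and the follicle epithelium's Ccl20) or are induced by interferon (Cxcl9 and Cxcl10). The RNA of 10 such epithelial and lymphocyte-attracting chemokines was followed here, chosen by name from the 31685 genes listed: Ccl25, Ccl28, Ccl20, Ccl6, Cx3cl1, Cxcl16, Cxcl9, Cxcl10, Cxcl13 and Ccl21a. All 10 passed the filter on low values (at least 1 FPKM in at least 3 of the 9 mice).

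The samples were jejunal tissue of wild-type C57BL/6J mice, male and 6 to 8 weeks old, collected on day 3. The control group (n = 3) had no treatment. The TAI group (n = 3) had a single X-ray dose of 12 Gy to the whole abdomen (total abdominal irradiation), followed by PBS in place of the antibody preparation. The TAI/IVIg group (n = 3) had 12 Gy of TAI and 500 mg/kg of IVIg, pooled human immunoglobulin G, injected into a vein within 1 h of irradiation and again every 3 days. The labels give 1 batch for all mice, and no group had IVIg without irradiation. Levels are in FPKM, the reads of a gene divided by its exon length and by all reads of the same library. The deposited FPKM gave back whole reads, with totals from 16284531 to 18244739 per mouse (median 17312593), so that 1 read in a gene of 1 kilobase was worth 0.0548 to 0.0614 FPKM.

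The label calls the samples epithelial tissue. Enterocyte markers (11 genes, Fabp1 and Apoa1 among them) summed to between 12200 and 48130 FPKM per mouse, and smooth muscle markers (6 genes, Myh11 among them) to between 112.6 and 765.1 FPKM, so the tissue also held muscle. B-cell and follicle markers (11 genes) summed to 69.2, 4.87 and 517.1 FPKM in control mice 1 to 3, to 2.95, 3.90 and 93.1 FPKM in the TAI mice, and to 2.09, 104.6 and 2.09 FPKM in the TAI/IVIg mice. A single mouse of each group (control 3, TAI 3 and TAI/IVIg 2) thus stood above the rest in lymphoid follicle RNA, and the differences of Cxcl13, Ccl21a and Ccl20 are given with and without these mice. In whole tissue, fewer cells of a type and less RNA per cell cannot be told apart.

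Groups were compared on log2(FPKM + 1), a scale that understates the change of low genes, with limma over all 13056 genes that passed the filter, and a gene was called at a Benjamini-Hochberg adjusted p under 0.05. In TAI against control, 34.9% of all genes tested were called, 8.81% higher and 26.1% lower. In TAI/IVIg against control, 46.4% were called, 9.06% higher and 37.4% lower. Against that background, 4 of the 10 chemokines were called in each of these comparisons, 2 higher and 2 lower, so the share called was near that of all genes. Both comparisons use the same control mice. The median difference of the 10 chemokines was -0.02 in TAI against control and -0.95 in TAI/IVIg against control, beside -0.24 and -0.39 for all genes tested. FPKM of most genes were thus lower in irradiated tissue, and with library medians set equal the calls were 2159 higher and 1823 lower in TAI against control, in place of 1150 and 3411, and 2880 and 1894 in TAI/IVIg against control, in place of 1183 and 4880.

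Ccl25 and Ccl28, the epithelial homing chemokines, were lower in every irradiated mouse. Ccl25 (ENSMUSG00000023235, chromosome 8, 4325210 to 4360020 in GRCm38, plus strand) had the highest mean level per length of the 10 in control jejunum, at 89.5, 108 and 75.3 FPKM, although Cxcl13 and Ccl21a reached its range in control 3. The TAI mice had 27.7, 32.8 and 35.6 FPKM, and the TAI/IVIg mice 29.2, 48.9 and 45.8 FPKM. The lowest control mouse lay above the highest irradiated mouse, and the irradiated groups overlapped. By group means Ccl25 was 2.84-fold lower in TAI mice, a log2 difference of -1.47 (SE 0.22, limma adjusted p = 0.00202), and 2.20-fold lower in TAI/IVIg mice, a log2 difference of -1.14 (SE 0.22, adjusted p = 0.00347). Relative to the median of all genes, these differences were -1.23 and -0.74. With library medians set equal, Ccl25 was no longer called in TAI/IVIg against control (log2 difference -0.65, adjusted p = 0.0612).

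Ccl28 (ENSMUSG00000074715, chromosome 13, 119623819 to 119654359, plus strand) had the lowest mean of the 10 in every group. It was at 2.61, 3.82 and 4.33 FPKM in the control mice, 0.506, 0.976 and 0.588 in the TAI mice and 0.172, 0.717 and 1.51 in the TAI/IVIg mice. These values rest on 220 to 363 reads per control mouse, 42 to 77 per TAI mouse and 15 to 123 per TAI/IVIg mouse, and neither irradiated group reached the control range. Ccl28 met the filter through the control mice, and TAI/IVIg 3 was the only irradiated mouse above 1 FPKM. With no filter, limma also called it lower in both comparisons with control (adjusted p = 0.0183 in TAI mice). The fall was 5.20-fold by group means in TAI mice (log2 difference -1.43, SE 0.28, limma adjusted p = 0.00581) and 4.48-fold in TAI/IVIg mice (-1.40, SE 0.28, adjusted p = 0.00415). Without control 3, TAI 3 and TAI/IVIg 2 together, the values were -1.27 (adjusted p = 0.0790) and -1.28 (adjusted p = 0.0510), and Ccl28 was called in neither.

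Most enterocyte markers differed between groups in the direction opposite to Ccl25 and Ccl28. Summed, they were at 19440, 15640 and 12200 FPKM in control mice, 37740, 28600 and 48130 in TAI mice and 46620, 42960 and 45280 in TAI/IVIg mice, so every irradiated mouse was above every control mouse. Within groups Ccl25 kept no such order, since the mouse with the highest sum had the highest Ccl25 of the TAI group and the lowest of the TAI/IVIg group. Of the 11 enterocyte genes tested, 6 rose and 2 fell in TAI against control. Lct, the lactase of the brush border, rose most (log2 difference 4.13, limma adjusted p = 0.000507), followed by the apolipoproteins Apoa4 (2.91, adjusted p = 0.000283) and Apoa1 (1.62, adjusted p = 0.00443). The 2 that fell were the intestinal homeobox factors Cdx1 (-0.70, adjusted p = 0.0122) and Cdx2 (-0.66, adjusted p = 0.0236), neither of which was called with library medians set equal (adjusted p = 0.0972 and 0.265). Of 5 general epithelial markers, the keratins Krt19 (-1.91, limma adjusted p = 0.0170) and Krt8 (-0.61, adjusted p = 0.0193, not called with library medians set equal, 0.320) fell in TAI mice. In TAI/IVIg mice Krt19, Krt18 and Krt8 fell, while Krt20 (0.81, adjusted p = 0.0278) and Epcam (0.59, adjusted p = 0.0401), the epithelial adhesion molecule, rose. Of these calls, that of Krt8 was lost with library medians set equal (0.726), and those of Krt20 (0.306) and Epcam (0.134) with quantile normalization. The 2 genes tested whose log2(FPKM + 1) most resembled that of Ccl25 over the 9 mice were Mpc2, a subunit of the mitochondrial pyruvate carrier (Pearson r = 0.993), and Cox5b, a subunit of cytochrome c oxidase (0.992). For Ccl28 they were Polr2i, a subunit of RNA polymerase II (0.988), and Emc6, a subunit of the endoplasmic reticulum membrane complex (0.986). These coefficients describe 9 mice in 3 groups whose levels differ.

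The promoter of Ccl25 is shown because its RNA had the highest mean in control tissue and fell in both irradiated groups. RefSeq (GRCm38.p6) gives Ccl25 2 starts, the first of which lies against exons of another gene and is not shown. The 250 bases before the second start, at chr8:4349338-4349587 on the plus strand, hold 1 match in capitals to TTTATNG, the letters searched for the CDX factors.

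Ccl25: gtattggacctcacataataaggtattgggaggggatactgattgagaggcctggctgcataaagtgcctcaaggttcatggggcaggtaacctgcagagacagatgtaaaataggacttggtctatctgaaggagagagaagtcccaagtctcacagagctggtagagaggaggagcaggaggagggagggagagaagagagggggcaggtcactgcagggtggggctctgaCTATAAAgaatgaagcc

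The match lies on the minus strand, at positions -17 to -11 from the start. The same letters hold TATAAA, the string of a TATA box, and whether they act as either site was not tested. TTTATNG was found on either strand in 9.81% of all 32851 promoters of this length. Promoters of 9 of the 10 chemokines were matched, and the window of Ccl28 held none of the 4 motifs searched.

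Cx3cl1 and Cxcl16, the chemokines that are made as transmembrane proteins on a mucin-like stalk, were higher in every irradiated mouse. Cx3cl1 (fractalkine, ENSMUSG00000031778, chromosome 8, 94772009 to 94782427, plus strand) binds Cx3cr1 on intestinal macrophages. It was at 26.2, 22.8 and 20.5 FPKM in the control mice, 49.9, 49.8 and 39.3 in the TAI mice and 48.7, 48.4 and 63.7 in the TAI/IVIg mice. No irradiated mouse overlapped the control range. Cx3cl1 rose 2.00-fold by group means in TAI mice (log2 difference 0.97, SE 0.16, limma adjusted p = 0.00342) and 2.31-fold in TAI/IVIg mice (1.17, SE 0.16, adjusted p = 0.00104). Relative to the median of all genes the differences were 1.20 and 1.56, and Cx3cl1 stayed called under all 20 and 19 alternatives run for these comparisons.

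Cxcl16 (ENSMUSG00000018920, chromosome 11, 70453983 to 70459984, minus strand), the ligand of Cxcr6 on T cells, was at 13.4, 11.2 and 11.5 FPKM in the control mice, 19.5, 22.9 and 15.7 in the TAI mice and 20.4, 19.1 and 16.9 in the TAI/IVIg mice. The rise was the smallest of the called differences, 1.61-fold in TAI mice (log2 difference 0.63, SE 0.16, limma adjusted p = 0.0148) and 1.56-fold in TAI/IVIg mice (0.60, SE 0.16, adjusted p = 0.0131). No irradiated mouse overlapped the control range, and the irradiated groups overlapped each other. In TAI against control the call was lost without control 2 (0.59, adjusted p = 0.0548), without TAI 1 (0.62, adjusted p = 0.0573) and without TAI 2 (0.51, adjusted p = 0.0505). Without the 3 mice of highest B-cell markers the differences were of like size but called neither in TAI mice (0.74, adjusted p = 0.0504) nor in TAI/IVIg mice (0.56, adjusted p = 0.0589). Exons of Cxcl16 share 552 bases with the antisense gene Zmynd15, at a mean of 3.05 FPKM, and whether the reads were counted by strand is not given in the sources used here. The genes most like Cx3cl1 over the 9 mice were Sdcbp, the scaffold protein syntenin (Pearson r = 0.996), and Chp2, a cofactor of sodium-proton exchangers (0.988), and those most like Cxcl16 were Dock5 (0.981), an exchange factor for Rac, and Il22ra1 (0.976), a receptor chain for interleukin-22.

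Of the 5 sheddases and proteases of chemokines, 2 rose in TAI against control. Adam10, a protease that cuts Cx3cl1 and Cxcl16 from the cell surface, was at 38.1, 32.7 and 35.1 FPKM in control mice and at 49.4, 45.3 and 47.8 FPKM in TAI mice (log2 difference 0.42, limma adjusted p = 0.0232). In TAI/IVIg mice Adam10 was at 43.4, 37.4 and 42.5 FPKM, which overlapped the controls (0.21, adjusted p = 0.156). Dpp4, the brush-border peptidase that trims Cxcl9 and Cxcl10, rose in both (0.79, adjusted p = 0.00844, and 0.86, adjusted p = 0.00389). Adam17, the other main sheddase of Cx3cl1, had a log2 difference of -0.20 (adjusted p = 0.359) in TAI against control. With library medians set equal, 3 of these 5 genes were called higher in TAI mice and 4 in TAI/IVIg mice, in place of 2 and 1.

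**Figure D1:**
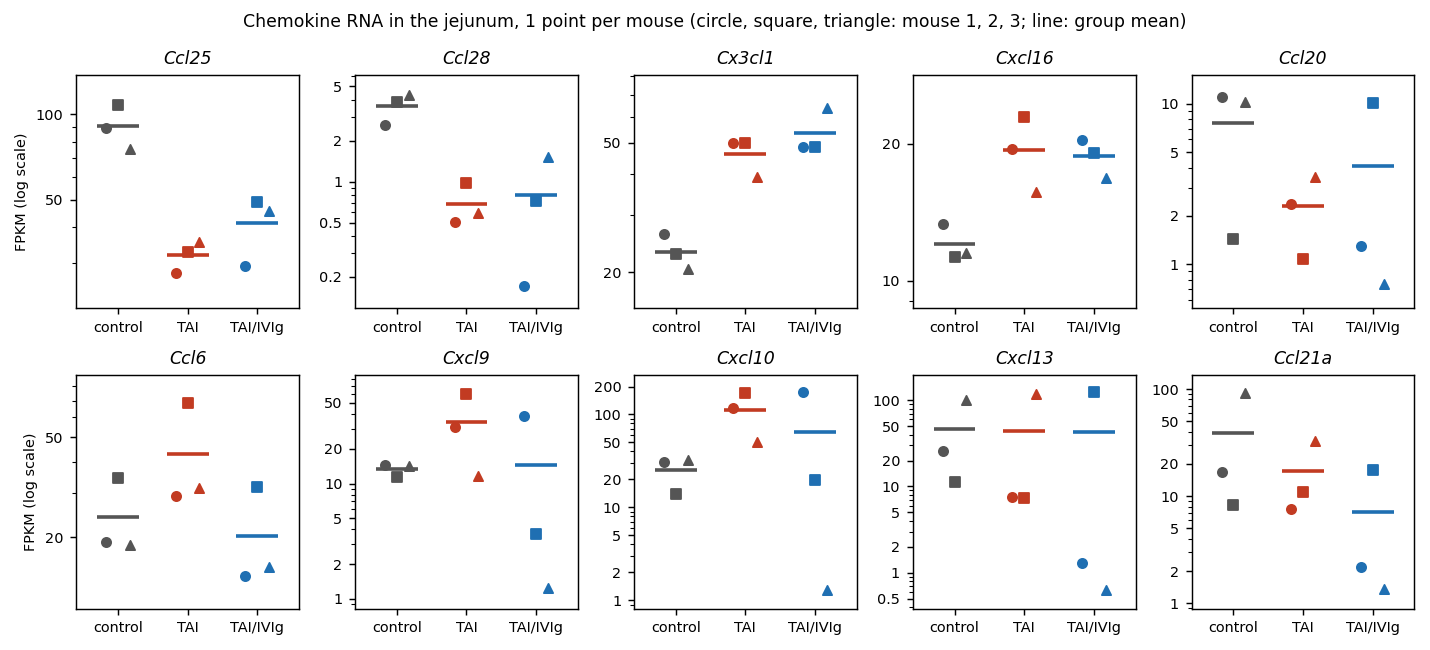
FPKM of the 10 chemokines on a log scale, 1 point per mouse (circle, square and triangle are mice 1, 2 and 3) and a line at each group's mean, in the control, TAI and TAI/IVIg groups. Ccl25 and Ccl28 lie lower, and Cx3cl1 and Cxcl16 higher, in all 6 irradiated mice than in the 3 controls, while the other chemokines overlap between the control and TAI/IVIg groups.

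Cxcl9 and Cxcl10, interferon-induced ligands of Cxcr3 on T cells, spread more among irradiated mice than among controls, and neither was called in any comparison. Cxcl10 (ENSMUSG00000034855, chromosome 5, 92346638 to 92348889, minus strand) was at 30.6, 13.8 and 32.0 FPKM in control mice, 118, 171 and 50.6 in TAI mice and 174, 19.9 and 1.30 in TAI/IVIg mice. The TAI mice all lay above the controls, whereas the TAI/IVIg mice held both the highest and the lowest value of the 9. By group means Cxcl10 was 4.43-fold higher in TAI mice (log2 difference 2.03, SE 1.28, limma adjusted p = 0.244). It was called in this comparison when only these 6 mice were fitted (adjusted p = 0.0188), where the spread of the TAI/IVIg mice does not enter, and in the same fit with a replicate block (0.0343). The TAI/IVIg mice had a log2 difference from control of -0.29 (SE 1.28, adjusted p = 0.861).

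Cxcl9 (ENSMUSG00000029417, chromosome 5, 92321347 to 92328079, minus strand) lies beside Cxcl10. It was at 14.6, 11.3 and 14.1 FPKM in control mice, 31.1, 60.2 and 11.7 in TAI mice and 38.4, 3.65 and 1.25 in TAI/IVIg mice. TAI 3 lay within the control range, and the TAI/IVIg mice fell on both sides of it. The log2 difference was 1.03 in TAI mice (SE 0.95, limma adjusted p = 0.417) and -0.94 in TAI/IVIg mice (SE 0.95, adjusted p = 0.430), and without TAI/IVIg 1 the latter was -2.14 and called lower (adjusted p = 0.0246). The ratio of Cxcl10 to Cxcl9 FPKM was 2.09, 1.22 and 2.27 in control mice, 3.78, 2.83 and 4.33 in TAI mice and 4.54, 5.45 and 1.04 in TAI/IVIg mice, so Cxcl10 exceeded Cxcl9 in every mouse.

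The interferon-gamma response list (19 genes, Gbp2 and Igtp among them) was set beside Cxcl10. It summed to 762.0, 633.9 and 816.0 FPKM in control mice, 746.3, 928.9 and 559.3 in TAI mice and 896.2, 501.6 and 391.2 in TAI/IVIg mice, and its highest mouse was that of Cxcl10 in 3 of 3 groups. The same held for the lists of NF-kappa-B response, macrophages and dendritic cells, mucosal homing and other chemokines. Pearson r with Cxcl10 was 0.845 over the 9 mice (0.941 within groups), and 0.902 (0.911) for other chemokines. TAI 3 had more Cxcl10 than every control mouse but a lower sum of the interferon-gamma list. Ifng itself was below the filter, at 0 to 0.178 FPKM. Of the 18 genes of the list tested in TAI against control, Irf1, a transcription factor induced by interferon, rose (log2 difference 0.99, limma adjusted p = 0.0113), and the immunoproteasome subunits Psmb9 (-1.10, adjusted p = 0.0115) and Psmb8 (-0.87, adjusted p = 0.0162) fell, Psmb8 not being called with library medians set equal (0.0665). In TAI/IVIg against control 2 rose and 5 fell, and the list's median differences were 0.13 and -0.76. With library medians set equal the calls were 3 higher and 1 lower in TAI mice and 4 higher and 0 lower in TAI/IVIg mice (3 lower at an unadjusted p under 0.05, and 0 called lower by voom too), with medians of 0.41 and -0.27. TAI/IVIg 3, lowest in Cxcl9, Cxcl10 and this list, was also lowest in smooth muscle markers, at 112.6 FPKM against at least 301.6 in the other mice, and in fibroblast markers, at 21.1 FPKM against at least 42.0. The part of tissue composition in the values of TAI/IVIg 3 was not tested.

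The 250 bases before the starts of Cxcl10 and Cxcl9 are shown because the 2 neighbouring genes varied together (RefSeq, GRCm38.p6, both on the minus strand, at chr5:92348890-92349139 and chr5:92328080-92328329).

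Cxcl10: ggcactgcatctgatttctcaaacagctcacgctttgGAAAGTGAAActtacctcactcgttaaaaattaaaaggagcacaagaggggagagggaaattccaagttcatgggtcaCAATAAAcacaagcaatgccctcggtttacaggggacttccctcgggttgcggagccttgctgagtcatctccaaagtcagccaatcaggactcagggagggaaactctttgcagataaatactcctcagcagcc

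Cxcl9: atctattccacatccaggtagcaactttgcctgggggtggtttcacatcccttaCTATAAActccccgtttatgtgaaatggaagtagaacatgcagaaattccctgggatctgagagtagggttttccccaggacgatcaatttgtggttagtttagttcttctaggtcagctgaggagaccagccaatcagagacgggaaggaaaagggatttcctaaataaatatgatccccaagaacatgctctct

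Capitals mark matches to the 4 motifs searched on both strands, GAAA and GAAA with any 2 bases between them for the interferon-stimulated response element (ISRE), TTCNNNGAA for the interferon-gamma activated site, GGG and TTTCC with any 2 bases between them for NF-kappa-B, and TTTATNG for CDX. Cxcl10 held an ISRE match, at positions -213 to -204 from the start, which 2.98% of all promoters hold, and a CDX match. Cxcl9 held a CDX match and none of the other strings searched in this window. Only these exact strings were searched, so other forms of the same sites could be present in any of the windows. Of the other chemokines, Ccl20 held an NF-kappa-B match at positions -80 to -71, which 1.41% of promoters hold. TTCNNNGAA was found in 7.02% of promoters and in none of the windows of these chemokines.

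Cxcl13, Ccl21a and Ccl20 are made by stromal and epithelial cells of lymphoid follicles, where they place B cells, T cells with dendritic cells, and Ccr6-bearing cells. None was called, and the mice with most follicle markers had the highest levels of Cxcl13 and Ccl21a in every group. Cxcl13 (ENSMUSG00000023078, chromosome 5, 95956951 to 95961068, plus strand) was at 26.1, 11.3 and 102 FPKM in control mice, 7.51, 7.37 and 119 in TAI mice and 1.31, 126 and 0.622 in TAI/IVIg mice. The high value of each group was that of control 3, TAI 3 and TAI/IVIg 2, the mice with the highest B-cell markers, and these 3 lay within 102 to 126 FPKM. In the other 6 mice Cxcl13 fell into order without overlap, with the controls at 11.3 and 26.1 FPKM, the TAI mice at 7.37 and 7.51 and the TAI/IVIg mice at 0.622 and 1.31. The B-cell and follicle sums of these 6 mice had the same order. They were 69.2 and 4.87 FPKM in controls, 2.95 and 3.90 in TAI mice and 2.09 and 2.09 in TAI/IVIg mice. Leaving out the 3 high mice thus did not even out follicle RNA. The log2 difference was -0.67 in TAI mice (SE 1.71, limma adjusted p = 0.778) and -2.06 in TAI/IVIg mice (SE 1.71, adjusted p = 0.339). Without TAI/IVIg 2 the latter was -4.07 (adjusted p = 0.0290). Without the 3 high mice, a subset chosen by markers that move with Cxcl13, the differences were -1.11 in TAI mice (adjusted p = 0.105) and -3.24 in TAI/IVIg mice (adjusted p = 0.00755).

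Ccl21a (ENSMUSG00000094686, chromosome 4, 42772860 to 42773993, minus strand), which lymphatic vessels also make, was at 16.7, 8.26 and 91.8 FPKM in control mice, 7.58, 10.9 and 33.0 in TAI mice and 2.17, 17.6 and 1.37 in TAI/IVIg mice. Its highest mouse was that of the B-cell markers in 3 of 3 groups. The log2 difference was -0.71 in TAI mice (SE 1.00, limma adjusted p = 0.602) and -2.26 in TAI/IVIg mice (SE 1.00, adjusted p = 0.0915). Without TAI/IVIg 2 the latter was -3.18 and called (adjusted p = 0.0244). Without the 3 high mice the differences were -0.34 in TAI mice (adjusted p = 0.531) and -2.22 in TAI/IVIg mice (adjusted p = 0.0115). The B-cell marker sums of the mice left still differed between the groups. Lyve1, a receptor of lymphatic endothelium, fell in TAI mice (-1.38, adjusted p = 0.00531) and in TAI/IVIg mice (-2.22, adjusted p = 0.000553), while the 6 lymphatic markers together had 1 call lower among the 3 genes tested. The other 2 tested were higher in TAI mice, where the median of the 3 was 0.26. In TAI/IVIg mice all 3 were lower, with a median of -0.58. Ccl21a has near-identical copies on chromosome 4, of which Gm10591 was listed with 32 reads over the 9 mice and Gm13304 with 1, beside 2868 for Ccl21a, so its reads could have been shared with copies.

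Ccl20 (ENSMUSG00000026166, chromosome 1, 83116766 to 83119167, plus strand), the ligand of Ccr6 made by the epithelium over follicles, was at 11.1, 1.43 and 10.3 FPKM in control mice, 2.38, 1.08 and 3.47 in TAI mice and 1.29, 10.2 and 0.755 in TAI/IVIg mice. The groups overlapped. The 3 mice above 10 FPKM had B-cell marker sums of 69.2 FPKM or more, while TAI 3, with a sum of 93.1 FPKM, had 3.47 FPKM of Ccl20. Markers of the epithelium over follicles (6 genes) summed to 93.0, 67.0 and 158.4 FPKM in control mice and 212.5, 159.5 and 254.6 in TAI mice. In TAI/IVIg mice the sums were 231.9, 93.6 and 74.8 FPKM. Of the 4 tested, 3 were higher and 1 lower in TAI against control, with 0 called. Pearson r with Ccl20 over the 9 mice was -0.06 for this list and 0.89 for the B-cell list. The log2 difference of Ccl20 was -1.14 in TAI mice (SE 0.79, limma adjusted p = 0.286) and -0.96 in TAI/IVIg mice (SE 0.79, adjusted p = 0.333), and without the 3 high mice -1.03 (adjusted p = 0.351) and -1.44 (adjusted p = 0.170). Fitted on the control and TAI mice alone with a replicate block, Ccl20 was called lower in TAI (adjusted p = 0.0425). The 12 T-cell markers summed to 22.3, 16.8 and 83.6 FPKM in control mice, 9.72, 11.6 and 21.7 in TAI mice and 7.86, 19.2 and 12.3 in TAI/IVIg mice, with 0 of 8 tested called in TAI against control by limma or by voom (1 lower at an unadjusted p under 0.05). Cd8b1, a chain of the CD8 co-receptor, was called lower in TAI/IVIg against control (-1.21, adjusted p = 0.0434), but not by voom (0.0522) or with library medians set equal (0.159).

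**Figure D2:**
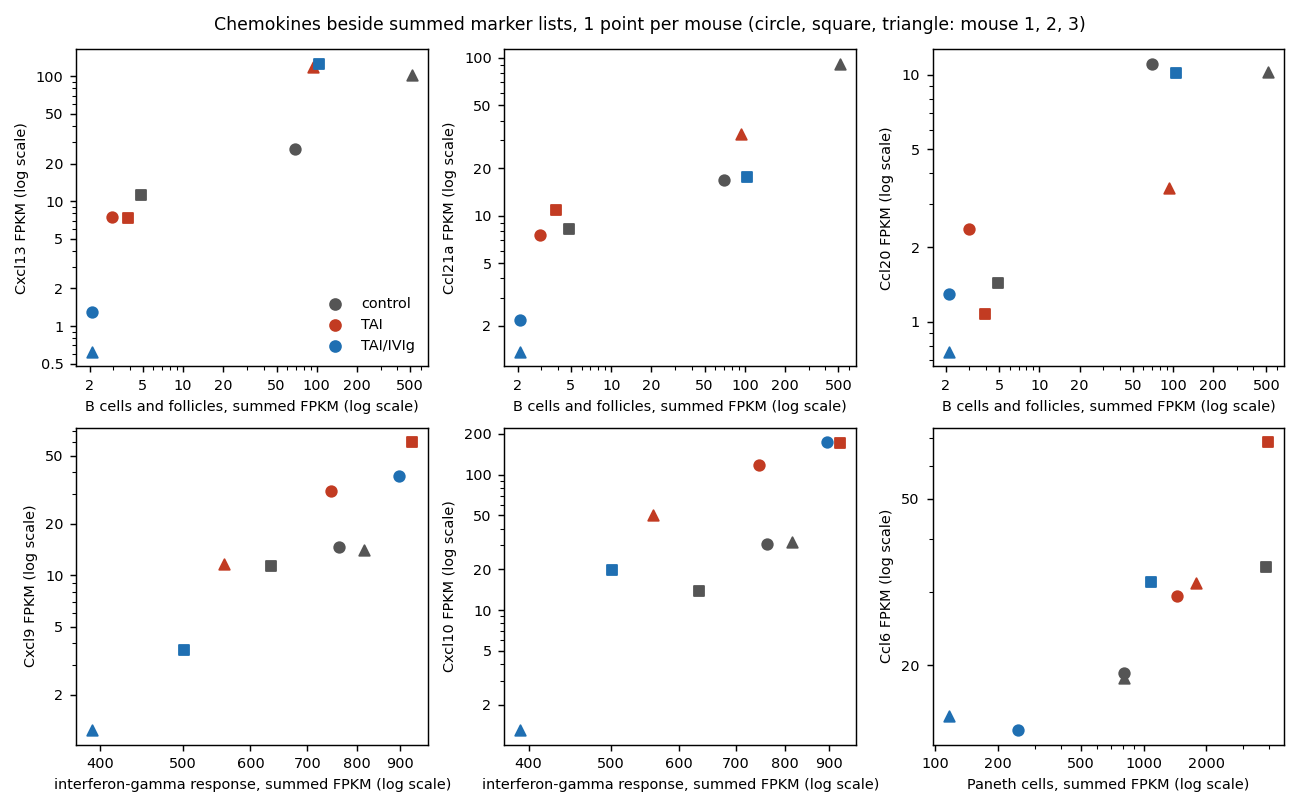
FPKM of 6 chemokines (vertical, log scale) against the summed FPKM of a marker list (horizontal, log scale), 1 point per mouse (circle, square and triangle are mice 1, 2 and 3, with colours for the groups). Cxcl13, Ccl21a and Ccl20 are set against B-cell and follicle markers, Cxcl9 and Cxcl10 against the interferon-gamma response list and Ccl6 against Paneth cell markers. For Cxcl13 and Ccl21a, control 3, TAI 3 and TAI/IVIg 2 are the highest of their groups on both axes, and the order of these 3 is not the same on both.

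Ccl6 (ENSMUSG00000018927, chromosome 11, 83587882 to 83593087, minus strand), a rodent chemokine that binds Ccr1, was at 19.1, 34.3 and 18.7 FPKM in control mice, 29.3, 68.3 and 31.4 in TAI mice and 14.0, 31.6 and 15.2 in TAI/IVIg mice. Mouse 2 was the highest of each group, and so were its Paneth cell markers (5 genes, Lyz1 and Itln1 among them), which summed to 808.1, 3861 and 802.3 FPKM in control mice, 1439, 3970 and 1785 in TAI mice and 249.4, 1084 and 116.0 in TAI/IVIg mice. Mouse 2 was also the highest of each group in goblet cell markers (5 genes, Muc2 among them), at 1172, 1969 and 1410 FPKM in the control, TAI and TAI/IVIg groups, and in markers of blood endothelium. Ccl6 had a log2 difference of 0.76 in TAI mice (SE 0.41, limma adjusted p = 0.176). With the replicate number as a block it was called higher in TAI (adjusted p = 0.00403, and 0.0107 on the control and TAI mice alone). Each TAI mouse exceeded the control of its number, though the labels do not say what a number means. For TAI/IVIg mice against control the log2 difference of Ccl6 was -0.27 (SE 0.41, limma adjusted p = 0.592). Of the 5 Paneth cell markers, 0 were called in TAI against control by limma or by voom (0 at an unadjusted p under 0.05), where all 5 had higher means on the log2 scale. Mmp7, the protease that activates defensins, was lower in TAI/IVIg against control (-2.39, adjusted p = 0.00916).

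With the replicate block on the control and TAI mice alone, 7 of the 10 chemokines were called in TAI against control in place of 4, with Ccl6 and Cxcl10 higher and Ccl20 lower beside the others. Of all 12792 genes tested there, 1298 were called higher and 3765 lower, in place of 1150 and 3411 of 13056. With the block on all 9 mice 5 chemokines were called, Ccl6 being added, beside 1191 higher and 3672 lower of all 13056 genes. Calls gained with the block rest on replicate numbers whose meaning the labels do not give. Without control 3, TAI 3 and TAI/IVIg 2, 2 chemokines were called (Ccl25 and Cx3cl1). Calls over all genes were fewer there too, with 563 higher and 1106 lower of 12117 tested.

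In TAI/IVIg against TAI, which sets IVIg against none in irradiated mice, 0% of the genes tested were called by limma, and none of the 10 chemokines was. Without adjustment, 214 genes had p under 0.05 with a higher and 1466 with a lower level in TAI/IVIg mice, and limma voom on the recovered reads also called 0 genes (896 and 987 without adjustment). On the deposited scale Ccl6 was the only chemokine under an unadjusted p of 0.05, while by voom Ccl25 was too, and with library medians set equal none was. Its group mean was 2.12-fold lower in TAI/IVIg than in TAI mice (log2 difference -1.03, 95% confidence interval -1.96 to -0.11, adjusted p = 0.364), and TAI/IVIg 2, at 31.6 FPKM, overlapped the TAI mice. Several cell type lists had lower levels in the same comparison, with all tested genes of each under an unadjusted p of 0.05 and 0 called by limma or by voom. With library medians set equal, 5 Paneth, 3 goblet, 1 smooth muscle and 5 fibroblast genes were under that level. On the deposited scale the median log2 differences were -2.58 for Paneth cells (5 genes), -0.99 for goblet cells (5 genes), -1.21 for smooth muscle (6 genes) and -0.997 for fibroblasts (6 genes), beside -0.13 for all genes, and their part in the value of Ccl6 was not tested.

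The intervals show what 3 mice a group could not resolve between TAI/IVIg and TAI. For Ccl25 the log2 difference was 0.33, with a 95% confidence interval from -0.16 to 0.82, and for Cx3cl1 it was 0.20, from -0.17 to 0.57. Cxcl16 had the interval nearest 0 (-0.03, from -0.38 to 0.32), and Ccl28 ran from -0.60 to 0.66. The intervals of Cxcl9 (-1.97, from -4.12 to 0.17), Cxcl10 (-2.32, from -5.23 to 0.58), Cxcl13 (-1.39, from -5.25 to 2.47), Ccl21a (-1.55, from -3.80 to 0.71) and Ccl20 (0.17, from -1.62 to 1.96) were several times wider. The median of the 10 chemokines was -0.53.

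**Figure D3:**
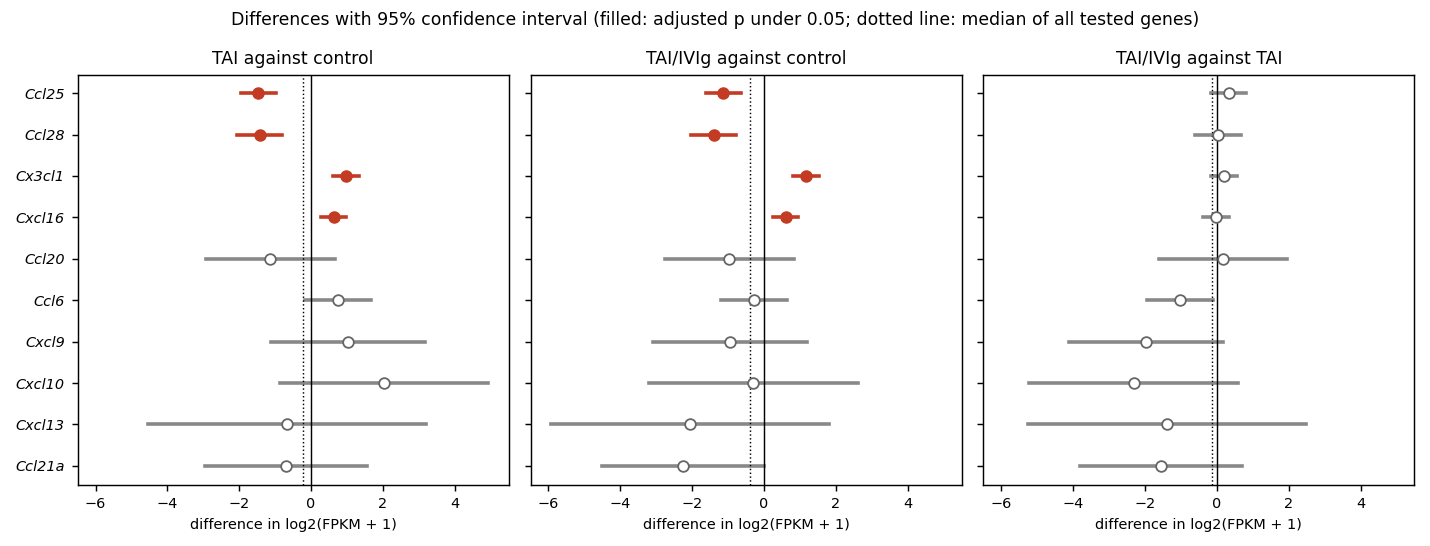
Differences in log2(FPKM + 1) of the 10 chemokines with 95% confidence intervals, in a panel for each comparison, filled where the adjusted p was under 0.05, with a dotted line at the median of all tested genes. Ccl25, Ccl28, Cx3cl1 and Cxcl16 have narrow intervals clear of 0 in both comparisons with control, and no chemokine is filled in TAI/IVIg against TAI.

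The receptors lay at 19.0 FPKM or less in every mouse, and 6 of 10 passed the filter. None was called in TAI against control (1 lower at an unadjusted p under 0.05), and 1 was lower in TAI/IVIg against control. That was Cxcr6, the receptor of Cxcl16, at 1.22, 1.23 and 1.59 FPKM in control mice, 0.514, 0.445 and 0.880 in TAI mice and 0.374, 0.945 and 0.247 in TAI/IVIg mice. Cxcr6 met the filter only through the control mice, where it was high, as every irradiated mouse was under 1 FPKM. Its log2 difference was -0.65 in TAI/IVIg mice (limma adjusted p = 0.0256) and -0.55 in TAI mice (adjusted p = 0.0588). The call was lost with library medians set equal (-0.16, adjusted p = 0.479) and by voom (-1.05, adjusted p = 0.0733). Ccr9, the receptor of Ccl25, was below the filter, at 0.404, 0.563 and 0.704 FPKM in control mice (72 to 125 reads), 0.182, 0.227 and 0.171 in TAI mice and 0.119, 0.258 and 0.122 in TAI/IVIg mice. Every irradiated mouse was thus below every control for Ccr9 as for Ccl25. The same held for Cxcr6, whose ligand Cxcl16 was instead higher in every irradiated mouse. Cxcr3, the receptor of Cxcl9 and Cxcl10, was at 1.33, 0.948 and 1.90 FPKM in control mice (29 to 57 reads), 0.135, 0.497 and 0.380 in TAI mice and 0.129, 0.340 and 0.0689 in TAI/IVIg mice (2 to 10 reads). Cxcr3 too was lower in every irradiated mouse than in every control. The share of all genes separated in this way was not counted. Ccr9 and Cxcr3 were not tested because they missed the filter.

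Ccr10 and Ccr3, the receptors of Ccl28, were at 0.200 to 0.656 FPKM and at 0 to 0.0563 FPKM and were not tested. Cx3cr1, the receptor of Cx3cl1, was at 1.05, 1.53 and 1.28 FPKM in control mice, 1.50, 2.35 and 2.12 in TAI mice and 1.62, 2.89 and 1.68 in TAI/IVIg mice (log2 differences 0.38, limma adjusted p = 0.160, and 0.40, adjusted p = 0.120). Set relative to the other genes, Cx3cr1 was called higher in both, by 0.67 (adjusted p = 0.0113) and 0.89 (adjusted p = 0.00243) with library medians set equal, and by voom too (adjusted p = 0.0244 and 0.00705). Ccr1, which binds Ccl6, was at 2.15 to 5.03 FPKM (0.45, adjusted p = 0.195, in TAI mice), and was called with library medians set equal (0.73, adjusted p = 0.0395) but not by voom (0.0677). The receptors of the follicle chemokines followed the 3 high mice. Cxcr5, the receptor of Cxcl13 on B cells, was at 14.5, 3.95 and 3.14 FPKM in control 3, TAI 3 and TAI/IVIg 2, at 1.64 FPKM in control 1 and at 0 to 0.0737 in the other mice. Ccr7, the receptor of Ccl21a, was at 19.0, 4.43 and 2.35 FPKM and Ccr6, the receptor of Ccl20, at 7.82, 1.51 and 2.44 FPKM in those 3 mice.

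**Figure D4:**
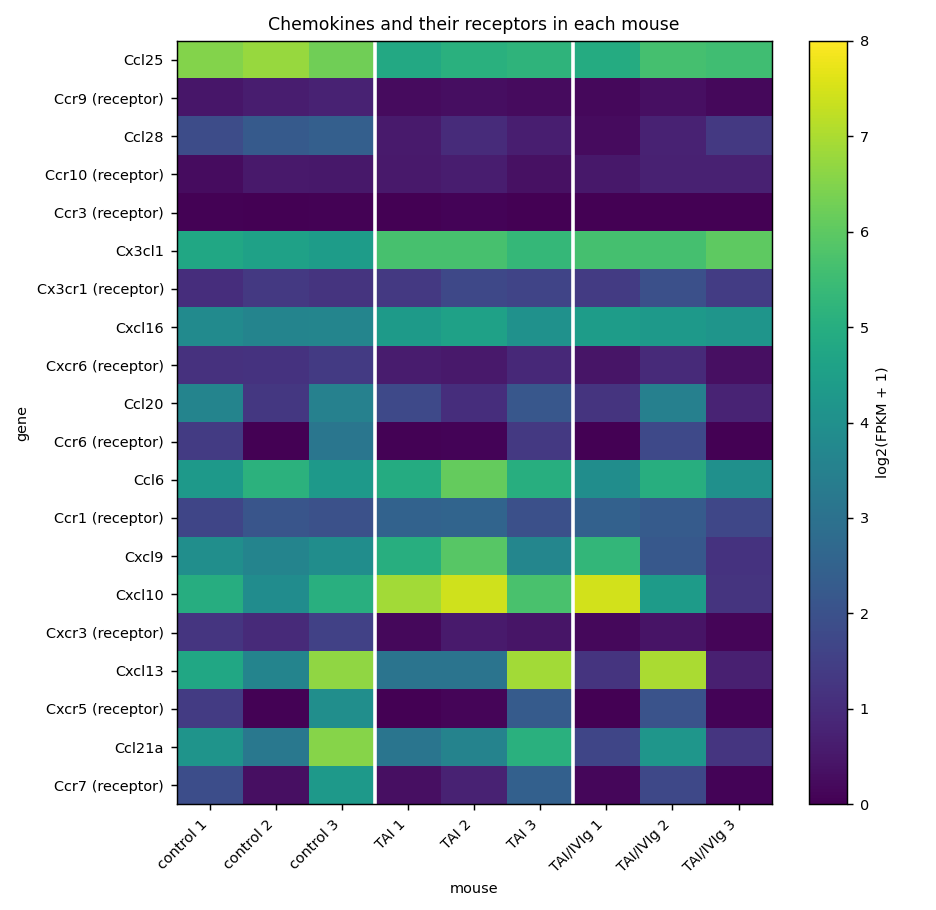
Level of each chemokine and, below it, its receptors as log2(FPKM + 1) in each of the 9 mice, with white lines between the control, TAI and TAI/IVIg groups. Ccl25 is darker and Cx3cl1 brighter in the 6 irradiated mice, and Cxcr5, Ccr7 and Ccr6 stand out in control 3, TAI 3 and TAI/IVIg 2.

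The atypical chemokine receptors take up chemokines without directing migration. Ackr3, which binds Cxcl12, rose in TAI mice from 0.670, 1.94 and 0.983 FPKM in controls to 2.86, 3.34 and 2.41 FPKM (log2 difference 0.85, limma adjusted p = 0.0314). In TAI/IVIg mice Ackr3 was at 2.06, 1.49 and 0.801 FPKM, within and around the control range (0.17, adjusted p = 0.609). Ackr1, a scavenger on venules (0.46, adjusted p = 0.219) and Ackr4, which takes up Ccl25 and Ccl21a (0.19, adjusted p = 0.553), were not called in TAI against control, and Ackr2 was below the filter at 0.0763 to 0.462 FPKM.

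Of 27 other chemokines listed, 20 were tested, and in TAI against control 7 rose and 2 fell. The monocyte and eosinophil attractants led: Ccl2 (log2 difference 2.30, limma adjusted p = 0.0140), Ccl11 (2.19, 0.0134), Ccl12 (2.18, 0.0278), Ccl7 (2.13, 0.00811) and Ccl24 (1.56, 0.0208), with Pf4, the platelet factor (1.06, 0.00762), and Ccl17 (0.97, 0.0159). Ccl11 was at 4.57, 10.2 and 4.97 FPKM in control mice, 44.1, 57.0 and 12.5 in TAI mice and 8.12, 8.11 and 4.19 in TAI/IVIg mice, and every TAI mouse exceeded every mouse of the other groups. The 2 that fell are made by lymphocytes, Xcl1 (-1.14, adjusted p = 0.0102) and Ccl5 (-1.02, adjusted p = 0.0253), Ccl5 not being called by voom (0.0884). In TAI/IVIg against control 2 rose, Ccl24 (1.52, adjusted p = 0.0174) and Pf4 (0.66, adjusted p = 0.0356), and 4 fell, Ccl8 (-2.21, adjusted p = 0.00721), Xcl1 (-1.33, adjusted p = 0.00348), Ccl9 (-0.89, adjusted p = 0.0229) and Ccl5 (-0.83, adjusted p = 0.0431), the last pair not being called by voom (0.0693 and 0.319). Of the 20, 19 had a lower level in TAI/IVIg than in TAI mice, with a median of -0.72, and 0 were called by limma or by voom (7 lower at an unadjusted p under 0.05 by each). With library medians set equal, 9 of the 20 were called higher and 1 lower in TAI mice, and 3 higher and 2 lower in TAI/IVIg mice.

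Among the 11 mucosal homing and adhesion genes, such as Madcam1, the addressin of mucosal venules, and the integrin chains Itga4 and Itgb7, 0 were called by limma or by voom in either comparison with control. At an unadjusted p under 0.05, limma had 1 lower in TAI mice and 3 lower in TAI/IVIg mice. Of the 8 lymphotoxin and lymphoid tissue genes tested, 1 rose and 2 fell in TAI against control. Tnfsf13b, the B-cell survival factor BAFF, rose (log2 difference 0.81, limma adjusted p = 0.00713), while Ltbr, the lymphotoxin-beta receptor (-0.55, adjusted p = 0.0111), and Tnfrsf11a, the receptor RANK (-0.43, adjusted p = 0.0324), fell on the deposited scale only, as neither was called by voom (0.179 and 0.246). Of the 12 NF-kappa-B response genes tested, 2 rose, Bcl3 (1.02, adjusted p = 0.0110) and Relb (0.87, adjusted p = 0.00261), and 0 fell (0 lower at an unadjusted p under 0.05, and 0 by voom). With library medians set equal 5 rose. Plasma cells carry Ccr10 and home to Ccl28. Of their 6 markers tested, Prdm1, a transcription factor that other cells also make, rose (1.58, adjusted p = 0.00994), and Derl3 fell (-0.82, adjusted p = 0.00909). Macrophage and dendritic cell markers had 2 of 8 lower and none higher, Cd68 (-0.95, adjusted p = 0.0131) and the integrin chain Itgax (-0.76, adjusted p = 0.0356), which voom did not call (0.0712).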

How the data were processed

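Jejunal RNA of 9 mice (3 per group) was sequenced, and the authors deposited FPKM values with a column per mouse. The submitters' processing notes name FastQC, Trimmomatic, STAR, featureCounts and the mm10 (GRCm38) build, without versions or settings. The FPKM of 30590 of the 31685 genes gave whole reads (within 0.001 of a read) at the exon length of GENCODE M21, and the other 1095 at another whole length. Coordinates are those of GENCODE M21. A symbol was matched to 31146 genes.

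The deposited FPKM, on the scale log2(FPKM + 1), were fitted by limma 3.58.1 (R 4.3.3) in a model of the 3 groups over all 9 mice, with a trend in the empirical Bayes variance. Genes with at least 1 FPKM in at least 3 mice were tested, with two-sided p-values adjusted by Benjamini-Hochberg within each comparison. The fit was tested on simulated data. The p-values set a difference between groups against the spread between mice, pooled over the 3 groups and moderated across genes.

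The 10 chemokines and the gene lists were chosen with earlier results of these data known. Named were the 10 chemokines, their receptors, the atypical receptors, other chemokines called in a comparison, up to 3 called genes per direction of each other list in TAI against control, and the 2 genes most like each called chemokine. Other genes named were chosen after their values were seen. Control and TAI mice of the same replicate number deviated together (correlations 0.271, 0.241 and 0.308), and a replicate block was run as an alternative. Mice of different numbers were not set beside these, so the correlations do not settle whether the numbers pair mice. Neither the labels nor the methods say what a number means. Protein sequences were not used here.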

Additional observations from a re-analysis of the deposited data

How the results depend on the processing

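The alternatives changed the pseudocount (to 0.1), the filter (none, or a mean of at least 5 FPKM), the scaling (equal library medians, quantiles, or voom on recovered reads), the trend, the mice fitted (only those compared, or each left out) and the replicate block. The block on the control and TAI mice alone, and leaving out control 3, TAI 3 and TAI/IVIg 2 together, were added after seeing the data. Of the values recomputed, 532 kept direction and side of the threshold, 8 lost their call, 10 gained one and 23 changed sign. The cause of each change was not tested. With a mouse left out, the 2 left in its group are assumed to vary like the other groups.

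In TAI against control, 4 chemokines were called. The replicate block gave 5 on all 9 mice and 7 on the 6 mice, and 2 were called without the 3 mice of highest B-cell markers. In that last fit calls over all genes were fewer too (563 higher and 1106 lower, in place of 1150 and 3411). With each mouse left out, 3 to 4 were called in TAI against control, 4 to 6 in TAI/IVIg against control and 0 in TAI/IVIg against TAI. The block gave 4 in TAI/IVIg against control and 0 in TAI/IVIg against TAI. Same-numbered mice had deviations correlating at 0.185, -0.136 and -0.296 between TAI/IVIg and control, and at 0.201, 0.041 and -0.0671 between TAI/IVIg and TAI. Mice of different numbers were not set beside these, so the values do not settle whether the TAI/IVIg mice are paired.

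The values that changed sign were of uncalled differences. Of TAI/IVIg against control, Ccl6 was at 0.22 with library medians set equal, 0.0534 with quantile normalization, 0.18 by voom and between -0.63 and 0.001136 with a mouse left out. Cxcl10 was at 0.20 with library medians set equal, 0.034 with quantile normalization and between -1.85 and 1.28 with a mouse left out. In TAI against control, with a mouse left out, Cxcl13 ranged from -1.94 to 0.16 and Ccl21a from -1.42 to 0.24, both highest without control 3. Between TAI/IVIg and TAI, Ccl28 was at -0.11 with a pseudocount of 0.1, -0.035 by voom, -0.0071 without the 3 mice and between -0.24 and 0.31 with a mouse left out, and Ccl20 was at -0.40 without the 3 mice and between -0.65 and 0.68 with a mouse left out. Cxcl16 was at 0.17 with library medians set equal, 0.0396 with quantile normalization, 0.16 by voom and between -0.16 and 0.0939 with a mouse left out.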
